A study of Mus musculus with 52 samples.

Results

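Genes for potassium channel subunits and for HCN channel subunits were followed through 3 brain regions and 3 infusions. The members are the protein-coding genes whose symbols begin with Kcn and a further letter, together with the Hcn genes. Of 103 matching symbols, 7 were left out: Kcnj13 and Kcne2, which are known from the choroid plexus, and 5 antisense or opposite-strand transcripts, Kcnd3os, Kcnq1ot1, Kcnmb4os1, Kcnmb4os2 and Kcnab3os. The 96 members stand among 46071 genes of the count table, 21596 of them protein-coding. All animals were 3-month-old male C57BL/6J mice, an inbred laboratory strain, with no transgene or deletion named in the labels. Conscious mice carrying a jugular catheter received saline (the basal group), insulin at 4 mU/kg/min (the low rate) or insulin at 12 mU/kg/min (the high rate) for 3 h while infused glucose adjusted their blood glucose, a procedure called a clamp. Tissue was taken at the end of the clamp, and total RNA of whole pieces of hypothalamus, hippocampus and nucleus accumbens was sequenced as 52 stranded libraries. The hypothalamus gave 5 basal, 6 low and 5 high libraries, and each other region gave 6 of every infusion. Nothing in the labels says which libraries came from different animals. The p-values therefore cover the variation among the libraries at hand, and some of that may be technical.

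Potassium channels let potassium leave the cell and so set the resting potential, the shape of the action potential and the firing pattern of neurons. Pore-forming subunits assemble as tetramers, or as dimers in the K2P class, and auxiliary subunits (Kv beta proteins, KChIPs, KCNE proteins and the beta subunits of BK channels) change their gating or trafficking. HCN channels are cation channels opened by hyperpolarisation and modulated by cyclic nucleotides, and they carry the pacemaker current of many neurons. In the hypothalamus, ATP-sensitive channels built from Kir6.2 (Kcnj11) and the sulfonylurea receptor SUR1 (Abcc8) are a known link between metabolism, insulin and firing.

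Total counts per library ran from 2453412 to 8279612 with a median of 4654641.5, and values are given as CPM (counts scaled to a common library size, here with TMM normalisation). Marker genes of the labelled tissues were present where they should be. The summed level of 8 hypothalamic peptide genes was 864 to 1693 CPM in basal hypothalamus and at most 3.55 CPM in basal hippocampus. The 8 markers of striatal projection neurons summed to 1589 to 2586 CPM in basal nucleus accumbens against 58.3 to 99.8 CPM in basal hippocampus. Some libraries stood apart. In 11 libraries counts leaned to GC-rich transcripts (a Spearman correlation above 0.4 between a gene's GC content and its deviation from the regional mean), and 3 of these were among the 5 basal hypothalamic libraries while none was in either insulin group of that region. At least 1 of 5 peptide genes (Hcrt, Pmch, Avp, Oxt, Pomc) lay under 1 CPM in 3 low and 2 high hypothalamic libraries and in no basal one. The cortical and hippocampal marker Slc17a7 exceeded 20 CPM in 3 of 6 accumbens libraries of each infusion, and the choroid plexus marker Ttr exceeded 100 CPM in 3 basal, 4 low and 5 high hippocampal libraries. For the genes called at the low rate in the hypothalamus, values without these libraries are given beside them, and for the region comparisons the counts without them are given. In bulk tissue, fewer cells of a type and less RNA per cell cannot be told apart.

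Of the 96 channel genes, 79 passed the filter on low counts in at least 1 region and 69 in all 3. The 17 that passed in none were Kcna7, Kcna10, Kcne1, Kcne3, Kcnv2, Kcnmb1, Kcnmb3, Kcnn4, Kcnj1, Kcnj14, Kcnj15, Kcnk5, Kcnk7, Kcnk15, Kcnk16, Kcnk18 and Kcnrg. Fewer than 100 counts over all libraries were found for 12 genes, and Kcnj1, the renal channel ROMK, had none. The summed level of all members under saline was 6770 ± 390 CPM (SD, n = 6) in the hippocampus, 5546 ± 531 (n = 6) in the nucleus accumbens and 4165 ± 421 (n = 5) in the hypothalamus. Per kilobase of annotated exon, where levels of different genes can be compared, the highest basal values in the hippocampus were those of Kcnab2 (120 ± 27.5 CPM per kb), Kcnk1 (99.6 ± 19.8) and Kcna1 (90.7 ± 13.5). In the nucleus accumbens Kcna1 (75.9 ± 18.7), Kcnk1 (65.7 ± 20.9) and Hcn2 (64.5 ± 15.9) led, and in the hypothalamus Hcn2 (56.9 ± 14.7), Kcnj10 (56.6 ± 11.4) and Kcnk1 (43.5 ± 12.8) did. Whether reads were counted by strand is not stated in the sources, so members whose exons overlap another gene have uncertain values. An opposite-strand gene covers 39.6% of the exon length of Kcna6 (Gm26673), 31.1% of Kcnj3 (Gm26794), 20.8% of Kcnmb4 (Kcnmb4os2) and 17.1% of Hcn3 (Pklr), and the same-strand gene Catsperz covers 13.1% of Kcnk4.

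**Figure D1:**
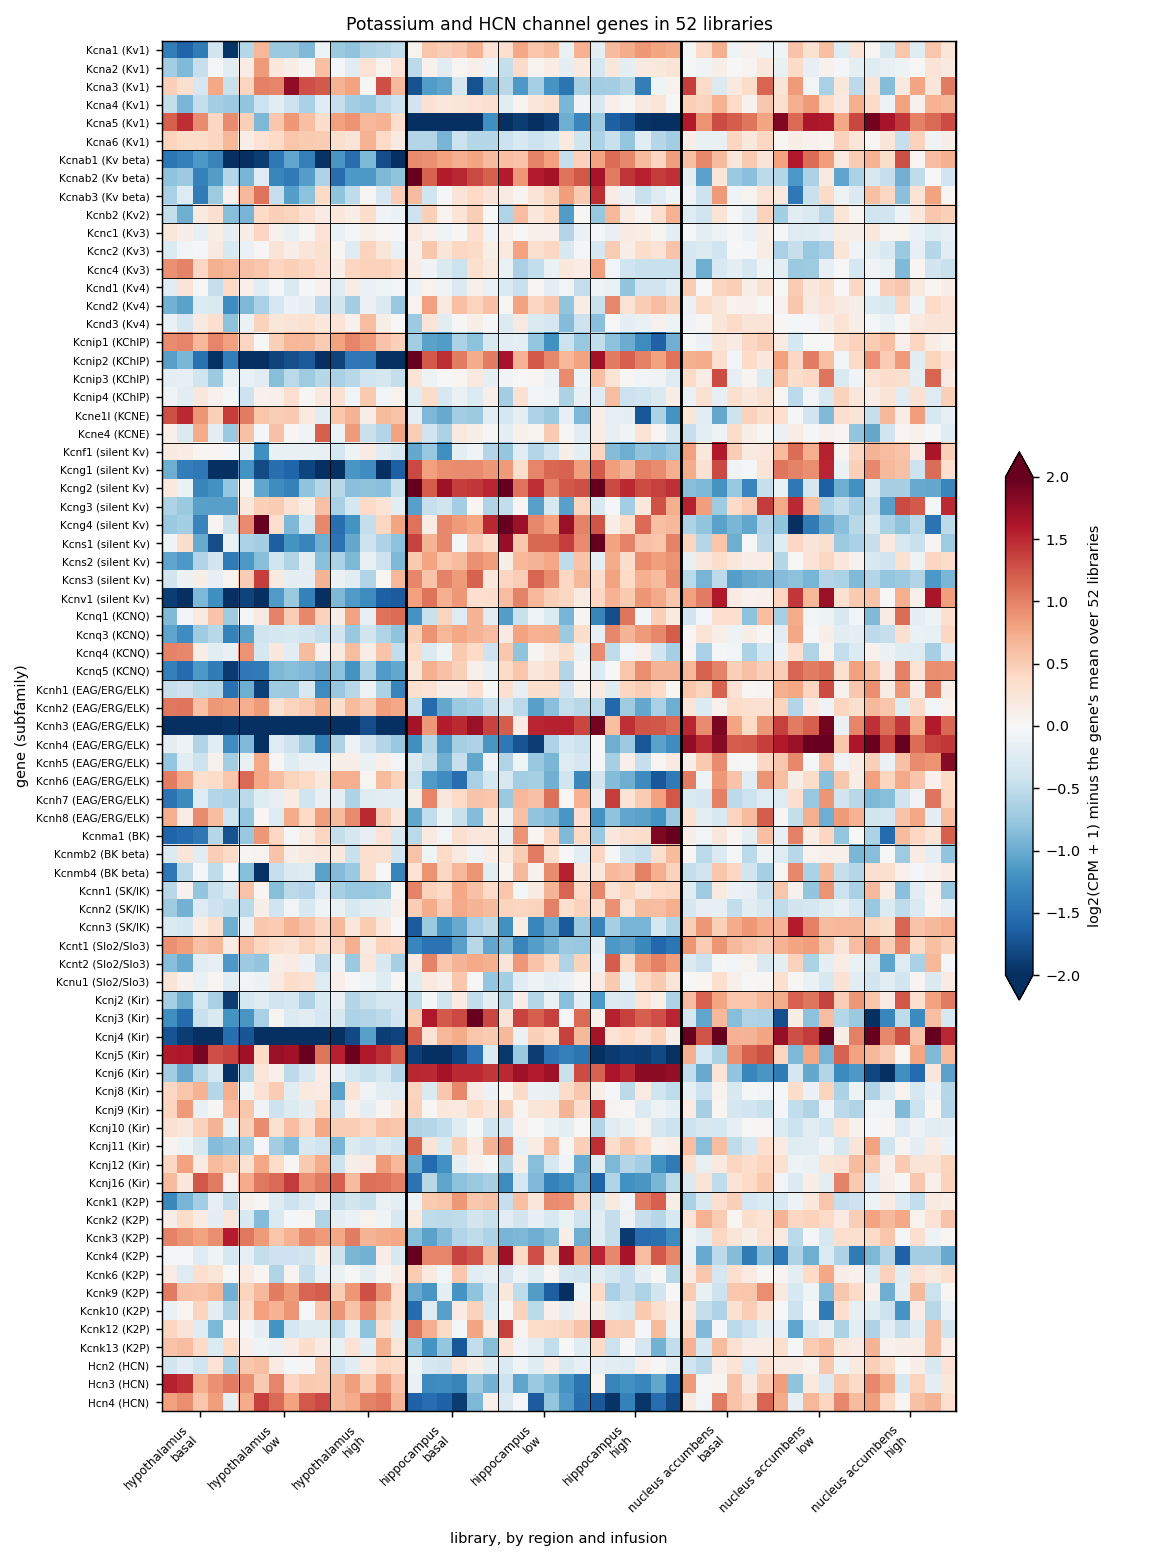
Each row is 1 of 75 channel genes that passed the count filter in at least 1 region, ordered by subfamily, and each column is 1 of 52 libraries, ordered by region and infusion. Colour gives log2(CPM + 1) minus the gene's mean over all libraries. The 3 regions form separate blocks for genes such as Kcnh3, Kcna5, Kcnj5 and Kcnj6, whereas the 3 infusions of a region form no such blocks.

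The channel genes differed between regions in both directions. Under saline, 58 of the 77 tested members (75.3%) differed between hypothalamus and hippocampus, against 44.1% of 14093 genes. Of these, 22 were higher in the hypothalamus (background 22.9% of all genes) and 36 lower (background 21.1%). Between nucleus accumbens and hippocampus 42 differed (background 27.9%), 23 higher in the accumbens (background 14.2%) and 19 lower (background 13.7%). Between nucleus accumbens and hypothalamus 37 differed (background 29%), 25 higher in the accumbens (background 13.9%) and 12 lower (background 15.1%). The median log2 fold change of the members was -0.35, 0.04 and 0.22 in these comparisons, against 0.05, 0.00 and -0.05 over all genes tested. The 3 comparisons share their basal libraries. They take libraries of different regions as independent, although regions of the same animal may be among them and could not be blocked. Without the GC-leaning libraries the counts were 51, 43 and 24 of 78, and without the accumbens libraries with Slc17a7 they were 59, 43 and 26 of 77. The former fit lacked 3 of the 5 basal hypothalamic libraries and 1 of 6 in each other region. The latter lacked 3 of the 6 basal accumbens libraries. Shares of all genes are not given for these fits, so a change in count is not read as particular to the members. No member call reversed its sign in any alternative or in any of 17 fits that left out 1 library. Of the 137 calls, 18 were lost in at least 1 of those fits, and genes named below as differing are not among the 18 unless stated. Kcna3, Kcna5, Kcnj5, Hcn4 and Kcne1l did not pass the count filter when the hippocampus was fitted alone, nor did Kcnk4 in the accumbens. These genes entered the saline fit with low counts in that region, so the size of their differences from it is uncertain.

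**Figure D2:**
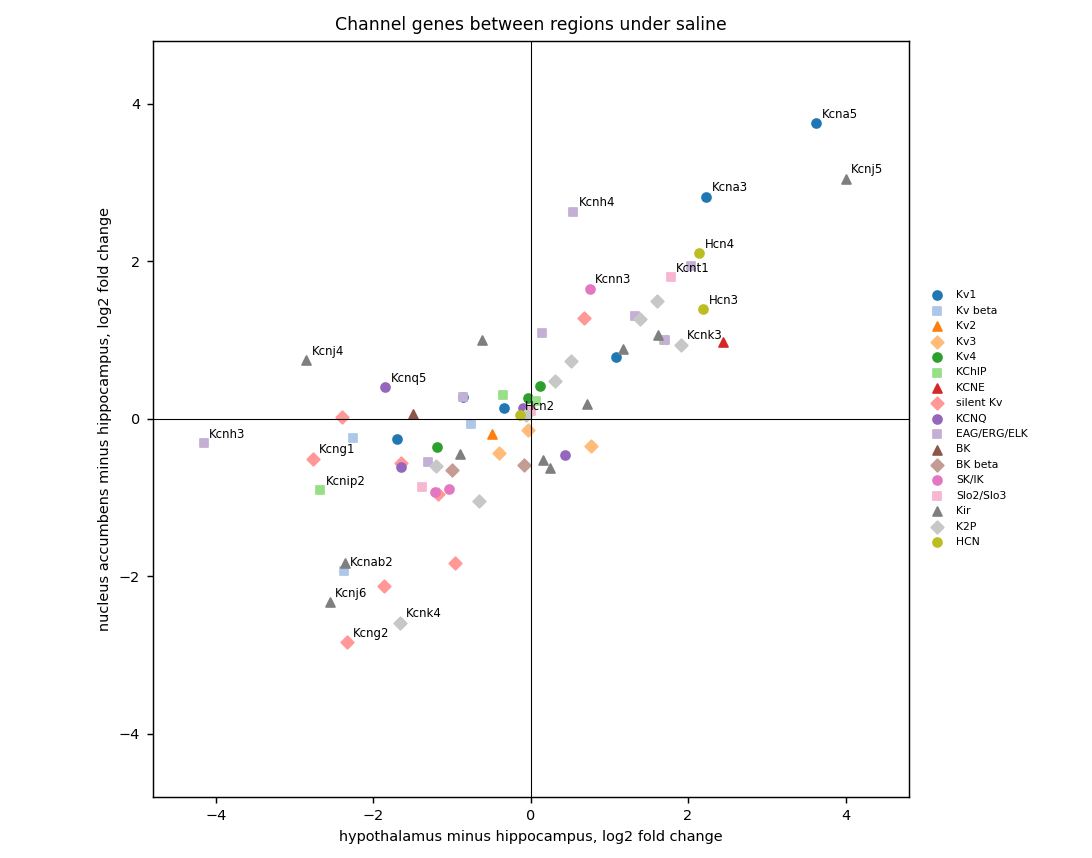
Each point is 1 of 73 channel genes, coloured by subfamily, with its log2 fold change under saline between hypothalamus and hippocampus on the horizontal axis and between nucleus accumbens and hippocampus on the vertical axis. Kcna5, Kcnj5, Hcn3 and Hcn4 lie high on both axes, Kcnj6 and Kcng2 lie low on both, and Kcnh3 lies farthest to the left, with an accumbens value near that of the hippocampus.

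Among Kv1 genes, the delayed rectifiers and low-threshold channels of axons, the mix of subunits differed. Kcna1 made up 65.4% ± 2.21 of the summed Kv1 level per kilobase in the hippocampus (SD over 6 libraries), 51.5% ± 6.89 in the nucleus accumbens and 31% ± 8.61 in the hypothalamus, where Kcna6 held 27.6% ± 4.83 against 8.21% ± 1.43 in the hippocampus. Kcna1 measured 121, 104, 120, 245 and 81 CPM in the 5 hypothalamic libraries, 331 to 511 CPM (median 454) in the hippocampus and 297 to 522 CPM (median 322) in the accumbens. Every hypothalamic library lay below every library of the other regions, and the log2 fold change against the hippocampus was -1.70 (SE 0.23, adjusted p = 4.36e-06). Kcna5, known from heart and vessels as well as glia, measured 23.5, 28.8, 19.5, 13.3 and 19.5 CPM in the hypothalamus. Levels ran from 17.4 to 31 CPM (median 22.6) in the accumbens and from 0.612 to 3.55 CPM (median 1.35) in the hippocampus. Its ranges did not overlap with those of the hippocampus, with log2 fold changes of 3.63 (SE 0.29, adjusted p = 4.18e-09) and 3.75 (SE 0.29, adjusted p = 2.5e-09). Kcna3, the lymphocyte and microglial Kv1.3, was also lowest in the hippocampus (0 to 1.65 CPM, median 0.581), and was higher by 2.23 (SE 0.57, adjusted p = 0.00322) in the hypothalamus, where 1 library at 1.45 CPM overlapped with it, and 2.82 (SE 0.53, adjusted p = 0.000289) in the accumbens. Kcna2, the main axonal partner of Kcna1, differed little. It measured 259 to 397 CPM (median 363) in the hippocampus, 201 to 361 CPM (median 270) in the hypothalamus and 351 to 431 CPM (median 379) in the accumbens. These ranges overlapped, and the difference between hypothalamus and hippocampus was -0.34 (SE 0.15, adjusted p = 0.0661). Accumbens minus hypothalamus was 0.48 (SE 0.15, adjusted p = 0.0191), a call lost without hypothalamic basal replicate 2 (log2 fold changes 0.38 to 0.59 and adjusted p = 0.0663 at most in fits without 1 library) and without the GC-leaning libraries (0.30, adjusted p = 0.187).

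All 3 Kv beta genes, cytoplasmic partners of Kv1 channels, were lower in the hypothalamus than in the hippocampus, against 21.1% of all genes. Their summed level per kilobase was 154 ± 29.9 CPM per kb in the hippocampus, 60.4 ± 13.8 in the accumbens and 33.2 ± 5.65 in the hypothalamus. Kcnab2 measured 542 to 952 CPM (median 638) in the hippocampus and 114 to 284 CPM (median 155) in the accumbens. The hypothalamic libraries held 137, 144, 93, 111 and 161 CPM. Both other regions lay wholly below the hippocampus, with log2 fold changes of -2.37 (SE 0.22, adjusted p = 3.6e-08) and -1.94 (SE 0.21, adjusted p = 3.01e-07). Kcnab1 followed another pattern, with 147 to 245 CPM (median 185) in the accumbens, near the 196 to 243 CPM (median 219) of the hippocampus and above every hypothalamic library (30.9 to 56 CPM; log2 fold change 2.00 (SE 0.15, adjusted p = 7.19e-09)). The Kcnab3 call between hypothalamus and hippocampus, -0.76 (SE 0.26, adjusted p = 0.0248), was lost without hypothalamic basal replicate 3 (-0.59, adjusted p = 0.0571).

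Kv4 genes carry the dendritic A-type current. Kcnd2 measured 190 to 320 CPM (median 259) in the hippocampus. In the hypothalamus it measured 92.8, 85.3, 149, 147 and 76 CPM, a log2 difference of -1.19 (SE 0.18, adjusted p = 1.77e-05). Kcnd3 and Kcnd1 did not pass the test in any of the 3 comparisons. Of the KChIPs, calcium-binding subunits of Kv4 channels, Kcnip2 and Kcnip1 went opposite ways. Kcnip2 measured 106 to 268 CPM (median 140) in the hippocampus and 61 to 106 CPM (median 81.9) in the accumbens. The hypothalamic libraries held 29.3, 33, 21.8, 15.3 and 23.7 CPM, each below all libraries of the other regions (-2.67, SE 0.24, adjusted p = 1.61e-08). Kcnip1 measured 54, 55.5, 43.7, 55.2 and 49.4 CPM in the hypothalamus and 12.2 to 21.9 CPM (median 15.9) in the hippocampus, again without overlap (1.69, SE 0.16, adjusted p = 2.87e-08). Kcnip2 thus held 55.8% ± 7.85 of the KChIP level per kilobase in the hippocampus and 15.8% ± 3.63 in the hypothalamus.

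Kv3 channels allow fast repolarisation. Kcnc4 was highest in the hypothalamus, 121, 127, 84.9, 105 and 101 CPM against 31.7 to 60 CPM (median 50.7) in the accumbens (-1.12 (SE 0.16, adjusted p = 4.19e-05) for accumbens minus hypothalamus). Kcnc1 did not pass the test between any regions, at 219 ± 28.4 (SD, n = 5), 226 ± 25.2 (n = 6) and 205 ± 15.6 CPM (n = 6) in hypothalamus, hippocampus and accumbens.

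The silent Kv subunits form no channel alone and modify Kv2 channels. Of 8 tested, 7 were lower and 1 higher in the hypothalamus than in the hippocampus, against 21.1% and 22.9% of all genes. Among the 7, the Kcns1 call was lost in 2 of 17 fits without 1 library (adjusted p = 0.0592 at most). Kcng1 measured 5.98, 4.24, 4.06, 1.57 and 2.28 CPM in the hypothalamus. Levels ran from 23.3 to 33.2 CPM (median 25.2) in the hippocampus and from 12.1 to 33.3 CPM (median 15.7) in the accumbens. Its hypothalamic libraries lay below all others (-2.76 (SE 0.29, adjusted p = 1.59e-07); accumbens minus hypothalamus 2.25 (SE 0.29, adjusted p = 9.42e-06)). Kcnv1 was also lower in the hypothalamus than in the accumbens. It measured 6.56, 5.57, 14, 11 and 5.82 CPM in the hypothalamus against 28.8 to 83.8 CPM (median 39.3) in the accumbens (2.42, SE 0.31, adjusted p = 8.56e-06). Kcng2 and Kcng4 were instead low in both other regions: accumbens minus hippocampus was -2.84 (SE 0.29, adjusted p = 2.1e-07) for Kcng2 and -2.13 (SE 0.28, adjusted p = 4.15e-06) for Kcng4. Kcns3 was lowest in the accumbens (4.45 to 7.13 CPM, median 5.09, against 12.6 to 25.4 CPM (median 21.1) in the hippocampus), and differed from the hypothalamus by -0.86 (SE 0.20, adjusted p = 0.00291). Kcnf1 was the exception in direction, 0.68 (SE 0.24, adjusted p = 0.028) for hypothalamus minus hippocampus, a call that was lost in 6 of 17 fits without 1 library. Over the 17 fits the log2 fold change was 0.55 to 0.79, with an adjusted p = 0.0746 at most. The 6 were those without hypothalamic basal replicate 1 or 2 or hippocampal basal replicate 1, 2, 3 or 6. Kcne1l, an X-linked relative of the KCNE subunits, was higher in the hypothalamus than in the hippocampus by 2.44 (SE 0.36, adjusted p = 1.29e-05). It had only 698 counts over all libraries and did not pass the count filter when the hippocampus was fitted alone.

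KCNQ channels carry the M current, which muscarinic receptors suppress. Kcnq3 and Kcnq5 were lower in the hypothalamus than in the hippocampus. Kcnq3 measured 131, 115, 166, 186 and 107 CPM in the hypothalamus. Levels ran from 254 to 331 CPM (median 287) in the accumbens and from 380 to 510 CPM (median 438) in the hippocampus. These 3 ranges did not overlap at all, and the log2 fold change between the outer regions was -1.65 (SE 0.14, adjusted p = 9.61e-09). Kcnq5 measured 83.9 to 137 CPM (median 93.5) in the accumbens and 54.2 to 98.8 CPM (median 77.8) in the hippocampus, ranges that overlapped, and the difference between them did not pass (0.40, SE 0.16, adjusted p = 0.0754). In the hypothalamus it measured 22.8, 20.1, 26.6, 22.3 and 15.2 CPM. The value for accumbens minus hypothalamus was 2.25 (SE 0.19, adjusted p = 2.47e-08).

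Among the EAG, ERG and ELK genes was the largest regional log2 fold change of the 77 tested members. Kcnh3, which encodes the forebrain ELK channel Kv12.2, measured 6.17, 6.89, 4.06, 3.92 and 9.35 CPM in the hypothalamus. Levels ran from 72 to 132 CPM (median 115) in the hippocampus and from 51.8 to 148 CPM (median 74.8) in the accumbens. The hypothalamus lay far below both other regions, with log2 fold changes of -4.15 (SE 0.29, adjusted p = 6.15e-10) against the hippocampus and 3.83 (SE 0.29, adjusted p = 5.81e-09) for accumbens minus hypothalamus, whereas hippocampus and accumbens overlapped. Its relative Kcnh4 was highest in the accumbens. It measured 19.4 to 30.3 CPM (median 23) there and 2.77 to 4.95 CPM (median 3.84) in the hippocampus. The hypothalamic libraries held 6.75, 7.29, 4.81, 6.66 and 2.7 CPM. Accumbens minus hippocampus was 2.63 (SE 0.23, adjusted p = 1.67e-08). Kcnh2, the ERG channel of cardiac repolarisation, was highest in the hypothalamus (97.8, 99.5, 71.1, 86.2 and 84.3 CPM, against 15.4 to 33.8 CPM (median 28.2) in the hippocampus; 1.71 (SE 0.17, adjusted p = 9.87e-08)). Kcnh2 held 56% ± 4.85 of the family level per kilobase in the hypothalamus and 12.4% ± 2.69 in the hippocampus, where Kcnh3 held 42.7% ± 5.36. Kcnh1, the EAG channel, was lower in the hypothalamus than in the hippocampus, at a log2 difference of -0.86 (SE 0.20, adjusted p = 0.00164). Of the accumbens minus hypothalamus differences, that of Kcnh2, -0.71 (SE 0.17, adjusted p = 0.00376), did not pass without the GC-leaning libraries (-0.55, adjusted p = 0.121) or without the accumbens libraries with Slc17a7 (-0.52, adjusted p = 0.101).

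Among channels opened by calcium or sodium, Kcnma1, the pore of the large-conductance BK channel, measured 11, 11.5, 12.6, 23.5 and 9.97 CPM in the basal hypothalamus, 24 to 44.5 CPM (median 40.9) in the hippocampus and 31.2 to 54.5 CPM (median 37.7) in the accumbens. Each hypothalamic library lay below all of the others, and Kcnma1 was lower there than in the hippocampus, at a log2 difference of -1.50 (SE 0.22, adjusted p = 9.05e-06). Kcnmb4, the neuronal BK beta subunit, measured 6.75, 13.4, 19.5, 13.7 and 19.5 CPM in the hypothalamus and 17.2 to 38.1 CPM (median 29.6) in the hippocampus. It was lower in the hypothalamus (adjusted p = 0.00683), a call lost without the GC-leaning libraries (-0.83, adjusted p = 0.106). The small-conductance channels, which carry the afterhyperpolarisation, exchanged their leading member. Kcnn2 measured 54.4 to 65.5 CPM (median 61.2) in the hippocampus and 27.2 to 34.2 CPM (median 31.7) in the accumbens (-0.93, SE 0.12, adjusted p = 3.98e-06), and Kcnn1 also was lower in the accumbens (-0.90, SE 0.19, adjusted p = 0.00079). Kcnn3 measured 73.4 to 97.3 CPM (median 89) in the accumbens against 16 to 36.3 CPM (median 28.4) in the hippocampus (1.65, SE 0.20, adjusted p = 2.06e-06), with no overlap. Kcnn3 thus made up 55.6% ± 4.63 of the family level per kilobase in the accumbens and 17.4% ± 4.3 in the hippocampus, where Kcnn2 held 53.6% ± 2.1. Kcnt1, the sodium-activated Slack channel, was lowest in the hippocampus (68.8 to 132 CPM, median 84.8) and did not overlap with hypothalamus (366, 348, 293, 308 and 215 CPM; 1.78 (SE 0.17, adjusted p = 3.15e-08)) or accumbens (273 to 359 CPM, median 294; 1.80 (SE 0.16, adjusted p = 3.03e-08)).

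The inward rectifiers of the Kir3 class, opened by G proteins downstream of inhibitory receptors, had a different composition in each region. Kcnj6 (Kir3.2) measured 36.3 to 43.5 CPM (median 38.6) in the hippocampus and 4.66 to 16 CPM (median 6.53) in the accumbens. In the hypothalamus it measured 7.72, 5.96, 8.56, 10.2 and 1.45 CPM. Hippocampus and the other regions did not overlap (-2.55 (SE 0.33, adjusted p = 1.9e-06) and -2.33 (SE 0.30, adjusted p = 3.65e-06)). Kcnj3 (Kir3.1) was lower in the hypothalamus (-2.36, SE 0.34, adjusted p = 8.81e-06), and in the accumbens it differed by -1.84 (SE 0.31, adjusted p = 8.72e-05). Kcnj5 (Kir3.4), best known from the heart atrium and adrenal cortex, had the reverse order, with 13.3, 13.5, 16.7, 10.6 and 11.2 CPM in the hypothalamus. Levels ran from 2.08 to 10.5 CPM (median 7.41) in the accumbens and from 0 to 2.96 CPM (median 0.318) in the hippocampus. The hypothalamus lay above the hippocampus without overlap (4.00, SE 0.55, adjusted p = 5.22e-06), while the accumbens overlapped with it in part (3.05, SE 0.56, adjusted p = 0.000247). Kcnj9 (Kir3.3) overlapped between hypothalamus and hippocampus (0.16, SE 0.18, adjusted p = 0.489).

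Strong rectifiers of the Kir2 class set the resting potential of striatal neurons. Kcnj4 (Kir2.3) measured 31.8 to 93.3 CPM (median 41.1) in the accumbens and 24 to 46.4 CPM (median 30.3) in the hippocampus. The hypothalamic libraries held 5.21, 4.51, 3.61, 1.57 and 6.23 CPM, a log2 difference of 3.59 (SE 0.34, adjusted p = 1.43e-07) between accumbens and hypothalamus. Its smaller difference between accumbens and hippocampus, 0.74 (SE 0.27, adjusted p = 0.0471), was lost in 10 of 17 fits without 1 library, those without hypothalamic basal replicate 1 or 2, hippocampal basal replicate 2, 3, 4, 5 or 6, or accumbens basal replicate 1, 2 or 3, and was lowest without the last of these (0.51, adjusted p = 0.146). It was 0.05 (adjusted p = 0.917) without the accumbens libraries with Slc17a7. Kcnj2 (Kir2.1) was higher in the accumbens than in the hippocampus by 1.00 (SE 0.20, adjusted p = 0.000675). Of the glial Kir channels, Kcnj10 (Kir4.1, the main potassium buffer of astrocytes) measured 299, 285, 334, 389 and 222 CPM in the hypothalamus and 159 to 239 CPM (median 178) in the hippocampus, a difference of 0.71 (SE 0.14, adjusted p = 0.000364) with overlapping ranges. Its partner Kcnj16 differed by 1.62 (SE 0.24, adjusted p = 1.07e-05). Of 8 astrocyte markers, 3 were higher and 2 lower in the hypothalamus in the same comparison, and their part in the Kcnj10 result was not tested.

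The pore genes of ATP-sensitive channels, Kcnj11 and Kcnj8, were low. Kcnj11 (Kir6.2) measured 7.52, 6.63, 5.56, 3.52 and 3.74 CPM in the hypothalamus. Levels ran from 5.81 to 17.2 CPM (median 9.67) in the hippocampus and from 3.57 to 11.6 CPM (median 7.51) in the accumbens. The hypothalamus minus hippocampus value, -0.90 (SE 0.32, adjusted p = 0.0269), was lost without hypothalamic basal replicate 4 (-0.81, adjusted p = 0.0513), hypothalamic basal replicate 5 (-0.79, adjusted p = 0.0667) or hippocampal basal replicate 1 (-0.74, adjusted p = 0.056). Omitting the hippocampal libraries with Ttr ended it as well (-0.50, adjusted p = 0.289). Kcnj8 (Kir6.1, a marker of pericytes) was at or below 5.27 CPM in every basal library. The receptor subunit Abcc8 (SUR1) was lower than in the hippocampus in both the hypothalamus (-1.38, SE 0.16, adjusted p = 4.62e-07) and the accumbens (-1.74, SE 0.15, adjusted p = 1.78e-08), while Abcc9 (SUR2) passed the test between no regions.

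Of the K2P genes, which encode leak channels, Kcnk1 (TWIK-1) dominated in each region, with 83% ± 6.12 of the family level per kilobase in the hippocampus, 69.7% ± 6.44 in the accumbens and 58.2% ± 8.92 in the hypothalamus. It measured 62.5, 80.4, 95.5, 137 and 110 CPM in the hypothalamus and 145 to 282 CPM (median 226) in the hippocampus (-1.20, SE 0.22, adjusted p = 0.000155). Kcnk3 (TASK-1, an acid-sensitive leak channel) measured 34.7, 32.5, 30.2, 33.3 and 52.1 CPM in the hypothalamus. Levels ran from 14.3 to 22.9 CPM (median 19.3) in the accumbens and from 7.51 to 11.6 CPM (median 9.78) in the hippocampus. These ranges did not overlap, and the outer regions differed by 1.91 (SE 0.17, adjusted p = 2.27e-08). Kcnk2 (TREK-1) was higher than in the hippocampus by 0.51 (SE 0.15, adjusted p = 0.00908) in the hypothalamus and 0.73 (SE 0.14, adjusted p = 0.000508) in the accumbens, and Kcnk4 (TRAAK) was lower in the accumbens than in the hippocampus, at a log2 difference of -2.59 (SE 0.30, adjusted p = 1.17e-06).

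The HCN genes Hcn2, Hcn3 and Hcn4 had different regional patterns. The level of Hcn2 passed the test between no regions. It measured 165, 184, 161, 261 and 138 CPM in the hypothalamus. Levels ran from 165 to 250 CPM (median 193) in the hippocampus and from 148 to 265 CPM (median 203) in the accumbens. Hcn3 measured 50.5, 47.2, 27.8, 32.1 and 35.1 CPM in the hypothalamus. Levels ran from 16.8 to 30.8 CPM (median 21.6) in the accumbens and from 5.93 to 15.1 CPM (median 7.26) in the hippocampus. Both regions lay above the hippocampus without overlap (2.19 (SE 0.24, adjusted p = 2.13e-07) and 1.39 (SE 0.23, adjusted p = 8.13e-05)). The lower level in the accumbens than in the hypothalamus (accumbens minus hypothalamus -0.80, SE 0.22, adjusted p = 0.0102) no longer passed without the GC-leaning libraries (-0.53, adjusted p = 0.101). Hcn4, the sinoatrial and thalamic subunit, was higher than in the hippocampus in the hypothalamus (2.14, SE 0.44, adjusted p = 0.000484) and in the accumbens (2.10, SE 0.43, adjusted p = 0.000713), though hippocampal basal replicate 6, at 4.34 CPM, lay inside their ranges. Of 6 thalamic neuron markers, 2 were higher in the hypothalamus and 1 in the accumbens than in the hippocampus, and their part in the Hcn4 result was not tested.

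**Figure D3:**
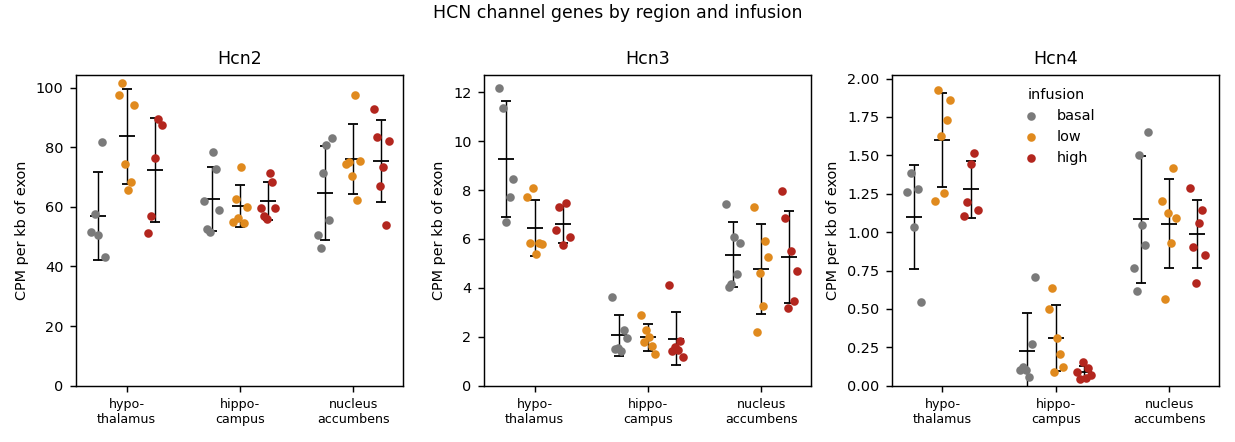
The 3 panels give CPM per kilobase of exon for Hcn2, Hcn3 and Hcn4, with 1 point per library, grouped by region and coloured by infusion; black marks give the mean and SD, and each panel has its own linear axis from 0. Hcn2 is at a similar level in the 3 regions, Hcn3 steps down from hypothalamus to accumbens to hippocampus, and Hcn4 is near 0 in most hippocampal libraries.

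Cell types with known channel genes differed between these tissue pieces. Of 8 pyramidal neuron markers, all 8 were lower in the hypothalamus than in the hippocampus, and 5 were higher in the accumbens than in the hypothalamus. Their summed level in the basal accumbens libraries ran from 948 to 3040 CPM, against 448 to 669 CPM in the hypothalamus and 6039 to 9205 CPM in the hippocampus. All 8 markers of striatal projection neurons were higher in the accumbens than in the hypothalamus as well, with a median log2 fold change of 2.84 against 2.27 for the pyramidal ones. In that comparison Kcnh3, Kcnj4, Kcng1, Kcnv1 and Kcnq5, named because they had its highest values, stood at 3.83, 3.59, 2.25, 2.42 and 2.25. Without the 3 basal accumbens libraries with Slc17a7 all 5 values were smaller, at 3.42 (adjusted p = 6.13e-08), 2.94 (adjusted p = 7.06e-07), 1.84 (adjusted p = 0.00016), 1.84 (adjusted p = 0.000137) and 2.06 (adjusted p = 1.29e-06), and each passed the test. Between accumbens and hippocampus 5 of the 8 pyramidal markers were lower in the accumbens and 1 higher (median -2.27), and the same channel genes stood at -0.31, 0.74, -0.51, 0.02 and 0.40. The part of either cell type in these values was not tested.

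Among 16 tested genes for proteins that bind or traffic channels, 4 were higher and 6 lower in the hypothalamus than in the hippocampus, against 22.9% and 21.1% of all genes. Dpp10, an auxiliary subunit of Kv4 channels, measured 96.4 to 179 CPM in the hypothalamus and 25.2 to 58.8 CPM in the hippocampus (1.72, SE 0.20, adjusted p = 5.16e-07). Dpp6, its relative, did not pass there (-0.29, SE 0.12, adjusted p = 0.0602) and was lower in the accumbens than in the hippocampus (-0.70, SE 0.12, adjusted p = 8.49e-05). Pex5l (TRIP8b), which controls HCN trafficking, measured 47.1 to 101 CPM in the hypothalamus against 155 to 188 CPM in the hippocampus (-1.32, SE 0.14, adjusted p = 1.86e-07). Akap5, a kinase anchor that binds KCNQ channels, was higher in the accumbens than in the hypothalamus by 3.70 (SE 0.18, adjusted p = 7.27e-12).

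In the hypothalamus 3 channel genes were higher at the low insulin rate than under saline. Kcnma1 rose by 1.71 (SE 0.26, adjusted p = 0.00293) on the log2 scale, Kcna3 by 1.26 (SE 0.33, adjusted p = 0.0367) and Kcna2 by 0.81 (SE 0.18, adjusted p = 0.0232), and 0 members fell. These are 3 of 78 tested members (3.85%), against 5.38% of 14139 genes. The background was 3.59% for higher and 1.78% for lower genes, so the share of members called was near that of genes at large. The members had a median log2 fold change of 0.12, with 42 above 0 and 36 below, against -0.02 over all genes, and 34 of 78 (43.6%) had an unadjusted p under 0.05 against 29.9% of all genes.

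The starts of the called genes are shown because these genes rose in the same comparison and Kcna3 and Kcna2 lie close together on chromosome 3. Each line gives the 250 bases before and 50 bases after the RefSeq start, on the gene's own strand, 5′ to 3′, in GRCm38.p6. Capitals mark matches to the GC box GGGCGG, on either strand, overlapping matches included. RefSeq promoters were available for 69 of the 96 members.
Kcnma1, chr14:24004156-24004455, minus strand: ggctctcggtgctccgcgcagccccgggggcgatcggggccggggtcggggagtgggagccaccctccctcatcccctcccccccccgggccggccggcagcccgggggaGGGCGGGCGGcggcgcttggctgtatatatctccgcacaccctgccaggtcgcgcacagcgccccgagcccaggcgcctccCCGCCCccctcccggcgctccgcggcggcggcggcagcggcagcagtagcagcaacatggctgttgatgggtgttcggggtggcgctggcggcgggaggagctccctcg
Kcna3, chr3:107035912-107036211, plus strand: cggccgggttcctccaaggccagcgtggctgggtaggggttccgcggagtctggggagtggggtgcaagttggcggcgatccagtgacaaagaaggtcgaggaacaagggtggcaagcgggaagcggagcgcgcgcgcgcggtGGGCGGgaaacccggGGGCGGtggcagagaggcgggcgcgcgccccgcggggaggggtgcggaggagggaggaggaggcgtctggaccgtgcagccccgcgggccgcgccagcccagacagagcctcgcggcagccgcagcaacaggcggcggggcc
Kcna2, chr3:107101317-107101616, plus strand: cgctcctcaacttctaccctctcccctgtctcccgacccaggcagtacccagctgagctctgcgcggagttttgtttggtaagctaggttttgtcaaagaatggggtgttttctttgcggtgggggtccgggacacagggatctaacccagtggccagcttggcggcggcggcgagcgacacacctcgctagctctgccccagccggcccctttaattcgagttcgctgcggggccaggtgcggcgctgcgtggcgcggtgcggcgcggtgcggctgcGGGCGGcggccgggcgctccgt
These windows were GC-rich, at 78% for Kcnma1, 75% for Kcna3 and 66.7% for Kcna2 against a median of 52.7% over 32851 promoters, and held 36, 37 and 31 CG dinucleotides against a median of 7. Values for the promoters of other members are not given, so these traits are not shown to be particular to the called genes. The GC box was matched 3 times, 2 times and 1 time, and 35.7% of all promoters hold it. The cyclic AMP response element TGACGTCA (in 1.79% of promoters) and the FOXO motif GTAAACA (in 3.65%), searched on both strands, were matched in none of the 3 windows. In the GENCODE annotation of GRCm38, Kcnma1 spans chr14:23289431-24014491, and Kcna3 and Kcna2 span chr3:107036169-107038070 and chr3:107101146-107115005. The RefSeq starts of Kcnma1 and Kcna2 used here lie inside the annotated genes, as do the bases shown before them.

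Kcnma1 measured 11, 11.5, 12.6, 23.5 and 9.97 CPM in the 5 basal hypothalamic libraries. The 6 low libraries ran from 20.5 to 65.9 CPM (median 43.5), and the 5 high ones held 25.2, 27.9, 31.7, 43.7 and 28.4 CPM. All high libraries and 5 of 6 low libraries lay above every basal library, and low replicate 1, at 20.5 CPM, lay under basal replicate 4, at 23.5 CPM. The fold change was 3.27 at the low rate. Its call was kept in each of 16 fits that left out 1 library (log2 fold changes 1.53 to 1.94, adjusted p = 0.0205 at most). With the GC lean taken into account it did not pass. In this region only basal libraries counted as leaning, so lean and infusion cannot be fully told apart. A covariate for each library's lean gave 1.49 (adjusted p = 0.0706). Without the 3 leaning basal libraries, which leaves 2 basal libraries, it was 1.34 (adjusted p = 0.733). Without the libraries that lack a peptide it passed (1.61, adjusted p = 0.031). The library tag numbers in the labels fall into 3 ranges, and a batch term for the range gave 1.44 (adjusted p = 0.0279). Within the lowest range the 2 basal libraries held 11 and 11.5 CPM and the low one 20.5 CPM. The middle range has no basal library, and its 2 low ones held 47.4 and 65.9 CPM. Within the highest range 3 basal libraries ran from 9.97 to 23.5 CPM and 3 low ones from 35 to 48.3 CPM.

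Kcna2 measured 229, 201, 270, 361 and 318 CPM in the basal, 379 to 675 CPM (median 420) in the low and 365, 319, 455, 392 and 456 CPM in the high libraries of the hypothalamus. All 6 low libraries lay above every basal one, with a fold change of 1.75. Leaving out 1 library ended the call in 4 fits. These were the fits without basal replicate 1 (0.75, adjusted p = 0.0747) and basal replicate 2 (0.70, adjusted p = 0.095). The others were those without low replicate 2 (0.67, adjusted p = 0.0568) and low replicate 6 (0.73, adjusted p = 0.057). A batch term for the tag range also ended it (0.74, adjusted p = 0.078), as did a covariate for the GC lean (0.70, adjusted p = 0.206). Omitting the GC-leaning libraries gave 0.62 (adjusted p = 0.811), and omitting those that lack a peptide gave 0.55 (adjusted p = 0.117).

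Kcna3 was a low-count gene, at 3.66, 3.18, 1.65, 4.7 and 1.45 CPM in the basal, 3.52 to 10.4 CPM (median 6.26) in the low and 4.44, 4.86, 2.4, 7.17 and 4.23 CPM in the high libraries. The groups overlapped, since low replicate 1, at 3.52 CPM, lay under 2 basal libraries. The call was lost in 8 of 16 fits without 1 library. Of the basal libraries these were replicate 1 (1.38, adjusted p = 0.0778), 2 (1.32, adjusted p = 0.111) and 5 (1.11, adjusted p = 0.0777). Of the low libraries they were replicate 2 (1.29, adjusted p = 0.0692), 3 (1.30, adjusted p = 0.0669), 4 (1.08, adjusted p = 0.0792), 5 (1.23, adjusted p = 0.0551) and 6 (1.23, adjusted p = 0.0707). Without the GC-leaning libraries the value was 1.30 (adjusted p = 0.811), and without those that lack a peptide it was 1.48 (adjusted p = 0.103). A batch term for the tag range ended the call (1.28, adjusted p = 0.137). Within the lowest tag range the low library, at 3.52 CPM, lay between the 2 basal ones, at 3.18 and 3.66 CPM. Within the highest range 3 basal libraries ran from 1.45 to 4.7 CPM and 3 low ones from 6.81 to 10.4 CPM. Of 7 tested microglial markers, a cell type known for Kcna3, 0 were called in the same comparison and their median log2 fold change was -0.32.

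**Figure D4:**
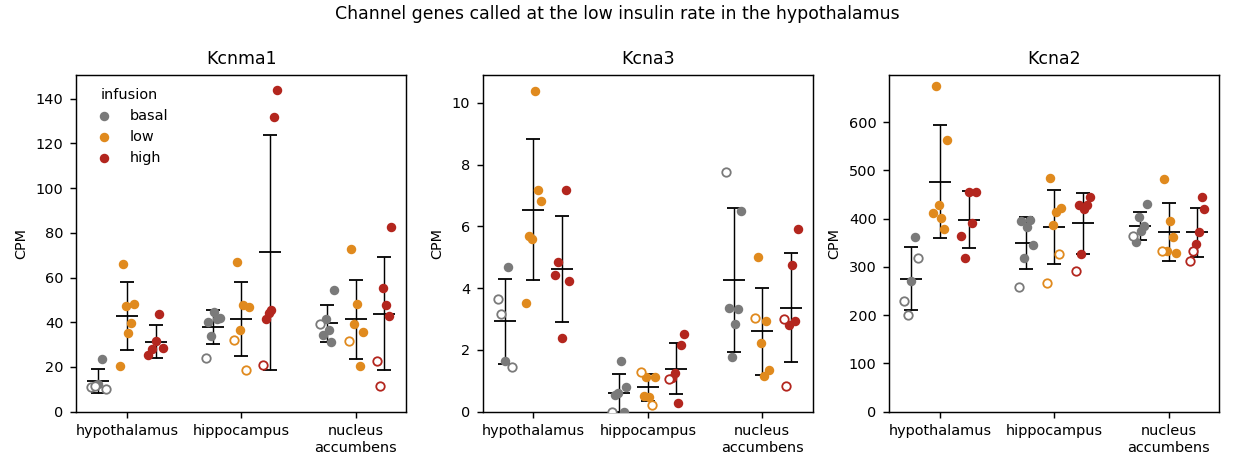
Panels give CPM of Kcnma1, Kcna3 and Kcna2 for each of 52 libraries by region and infusion, on linear axes from 0; open points are the 11 GC-leaning libraries, and black marks give the mean and SD of each group. In the hypothalamus the low and high libraries of Kcnma1 lie mostly above the basal ones, 3 of which are open points, and in the hippocampus 2 high libraries stand at 132 and 144 CPM.

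The other 75 tested members did not pass. Kcna1 was just outside the threshold (0.99, SE 0.29, adjusted p = 0.0502), with 121, 104, 120, 245 and 81 CPM in the basal and 172 to 505 CPM (median 201) in the low libraries. Basal replicate 4 lay among the low ones. Kcnn3, the SK3 channel, stood at 0.66 (SE 0.20, adjusted p = 0.0527), Kcnq3 at 0.50 (SE 0.16, adjusted p = 0.065) and Kcnk1 at 0.55 (SE 0.16, adjusted p = 0.0558). Negative values that did not pass included Kcne1l (-0.86, SE 0.26, adjusted p = 0.0555), Kcnip2 (-0.74, SE 0.23, adjusted p = 0.0619) and Kcnk2 (-0.46, SE 0.15, adjusted p = 0.0667). Of the HCN genes, Hcn2 was at 0.58 (SE 0.18, adjusted p = 0.0655), Hcn4 at 0.57 (SE 0.21, adjusted p = 0.094) and Hcn3 at -0.52 (SE 0.16, adjusted p = 0.0622). The ATP-sensitive channel gene Kcnj11 stood at -0.13 (SE 0.24, adjusted p = 0.716) and its receptor Abcc8 at -0.20 (SE 0.15, adjusted p = 0.367).

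**Figure D5:**
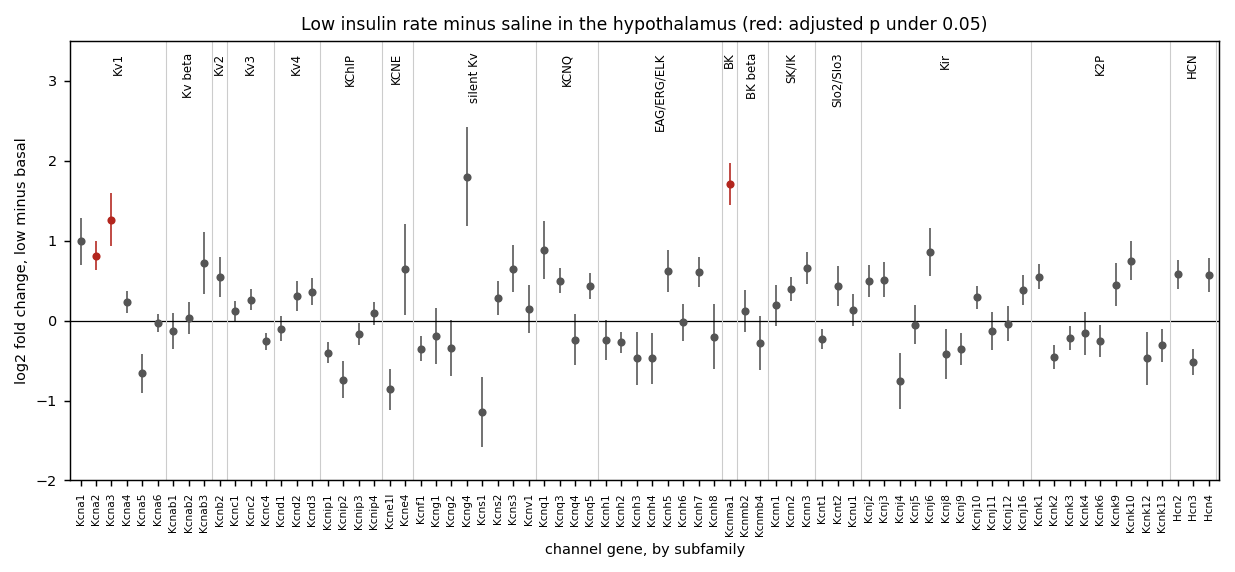
Points give the log2 fold change of low minus basal in the hypothalamus for 74 of the tested channel genes, ordered by subfamily, and bars give its standard error; red marks an adjusted p under 0.05. Kcnma1, Kcna3 and Kcna2 are red, and Kcng4 is as high as Kcnma1 but with a standard error of 0.62.

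The direction of a member's difference went along with the GC content of its transcript. The 42 members with a value above 0 had a median GC of 47.8% and the 36 below 0 of 55.4%, as over all genes tested, where the medians were 45.7% and 53.3%. Transcripts of Kcnma1 and Kcna2 had a GC content of 45.2% and 45.8%, and that of Kcna3 60.3%. The number of members called moved with the libraries used: leaving out basal replicate 4 gave 23, basal replicate 3 gave 20 and low replicate 1 gave 16, while leaving out basal replicate 1 or 2 or low replicate 2 or 6 gave 1 each. With DESeq2 15 members passed and with limma-voom 9. A covariate for the lean or omission of the GC-leaning libraries left 0, and omission of libraries that lack a peptide left 1. The shares of all genes called in these fits are not given here, so these counts do not single out the channel genes. Some cell type markers were called in the same comparison, where 3.59% of all genes were higher and 1.78% lower. Of 10 oligodendrocyte markers 2 were called higher and 9 stood above 0 (summed level 5453 to 11782 CPM in the low against 4541 to 8392 CPM in the basal libraries). Of 8 astrocyte markers 2 were called higher, but the list's median was -0.06. Of 6 thalamic and 7 endothelial markers 1 each was called higher, and of 5 ependymal markers 1 was called lower (median -0.92, with all 5 below 0). The 8 peptide genes had a median of -1.88, all below 0, and 0 were called. In the lists of pyramidal, striatal, microglial, mural and choroid plexus markers 0 were called. Their part in the channel results was not tested.

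Of 15 tested partner genes, 3 were called higher at the low rate and 0 lower, against 3.59% and 1.78% of all genes. They were the HCN trafficking protein Pex5l (0.77, SE 0.22, adjusted p = 0.049), the scaffold Ank3 (0.44, SE 0.12, adjusted p = 0.0411) and Adam22 (0.52, SE 0.14, adjusted p = 0.0429), all just under the threshold. Without the GC-leaning libraries none of them passed (0.49, 0.27 and 0.23, adjusted p = 0.822, 0.811 and 0.811), nor without those that lack a peptide (0.31, 0.35 and 0.53, adjusted p = 0.28, 0.14 and 0.121). A batch term for the tag range ended all 3 calls (adjusted p = 0.166, 0.116 and 0.134), as did a covariate for the GC lean (adjusted p = 0.309, 0.32 and 0.358). The partner list was chosen with earlier results of these data known, so its share called is not read as particular to it. Ank3 anchors KCNQ channels at the axon initial segment, and Adam22 is a receptor for the Kv1-associated protein Lgi1. Dpp6 (-0.23, SE 0.10, adjusted p = 0.151), Dpp10 (0.22, SE 0.17, adjusted p = 0.363) and Abcc9 (0.57, SE 0.28, adjusted p = 0.177) did not pass.

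At the high rate 0 of 78 members passed in edgeR, against 0.184% of all genes. An unadjusted p under 0.05 was found for 20 members (25.6%), near the 24.1% of all genes. DESeq2 and limma-voom called 1 each, Kcnma1. The members with the smallest p were Kcnma1, at 1.25 (SE 0.27, adjusted p = 0.0634), and Kcnk10 (TREK-2), at 0.84 (SE 0.25, adjusted p = 0.128). Kcnk10 measured 3.28, 3.84, 5.41, 3.13 and 2.08 CPM in the basal and 7.64, 5.97, 7.85, 5.77 and 4.87 CPM in the high libraries, which overlapped. Kcnma1 passed without low replicate 1 (1.23, adjusted p = 0.0309), low replicate 2 (1.24, adjusted p = 0.0428), basal replicate 3 (1.23, adjusted p = 0.0466) or basal replicate 4 (1.48, adjusted p = 0.00842). Kcnk10 passed without basal replicate 3 (1.05, adjusted p = 0.0466). Leaving out basal replicate 4 gave 12 members called and basal replicate 3 gave 5, again without the share of all genes beside them. The comparison shares its basal libraries with that of the low rate: Kcna2 stood at 0.54 (SE 0.18, adjusted p = 0.143) and Kcna3 at 0.73 (SE 0.34, adjusted p = 0.205). Between the rates 0 members and 0% of all genes passed, with 3 members and 199 genes under an unadjusted p of 0.05. DESeq2 and limma-voom called 0 members. Kcnj4 stood at 1.02 (SE 0.35, adjusted p = 1).

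In the hippocampus 0 of 70 tested members passed in any of the 3 insulin comparisons, as did 0% of all 13515 genes in each. An unadjusted p under 0.05 was found for 5 members and 817 genes at the low rate, for 4 members and 353 genes at the high rate, and for 5 members and 384 genes between the rates. DESeq2 and limma-voom called 0 members. The leak channel gene Kcnk13 (THIK-1) came nearest at the low rate (1.02, SE 0.29, adjusted p = 0.293). It measured 0.988 to 3.56 CPM (median 2.66) in the basal and 3.56 to 6.63 CPM (median 4.77) in the low libraries, which met at 3.56 CPM. The high ones ran from 2.34 to 7.32 CPM (median 3.92) (0.85, SE 0.29, adjusted p = 1). In 1 fit of all 52 libraries Kcnk13 passed at the low rate (1.02, adjusted p = 0.0383). The summed level of 10 oligodendrocyte markers was 2902 to 5348 CPM in the basal and 6084 to 18805 CPM in the low hippocampal libraries, groups that did not overlap, and its part in the Kcnk13 value was not tested. The other members with the smallest p were Kcna6 at the low rate (0.34, SE 0.13, adjusted p = 0.64), Kcnk6 at the high rate (-0.52, SE 0.20, adjusted p = 1), and Kcng4 (-0.85, SE 0.29, adjusted p = 1) and Kcnu1 (0.65, SE 0.26, adjusted p = 1) between the rates. Kcnma1 measured 24 to 44.5 CPM (median 40.9) in the basal and 18.8 to 67 CPM (median 41.8) in the low libraries. At the high rate replicates 5 and 6 held 132 and 144 CPM and the other 4 held 20.7 to 45.5 CPM. The value for high minus basal was 0.93 (SE 0.38, adjusted p = 1). Without the libraries with Ttr, which leaves 3 basal, 2 low and 1 high library, Kcnma1 passed for high minus basal (1.91, adjusted p = 0.000207) and high minus low (1.79, adjusted p = 0.00119), and that lone high library, replicate 6 at 144 CPM, is assumed to vary like the other groups.

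In the nucleus accumbens 0 of 77 tested members passed in the 3 comparisons, as did 0% of 13769 genes. In the order used for the hippocampus, 0, 1 and 0 members had an unadjusted p under 0.05, with 196, 326 and 292 of all genes. DESeq2 and limma-voom called 0 members here as well. The smallest p at the low rate belonged to Kcna3 (-0.71, SE 0.39, adjusted p = 1) and Kcnab1 (0.34, SE 0.21, adjusted p = 1). At the high rate it belonged to Kcnh5 (0.62, SE 0.29, adjusted p = 1) and Kcnk10 (-0.60, SE 0.32, adjusted p = 1), and between the rates it belonged to Kcnh5 (0.61, SE 0.30, adjusted p = 0.999) and Kcnab3 (0.51, SE 0.28, adjusted p = 0.999). Kcnma1 measured 31.2 to 54.5 CPM (median 37.7) in the basal, 20.4 to 72.6 CPM (median 37.4) in the low and 11.6 to 82.8 CPM (median 45.5) in the high libraries, with overlapping ranges, and low minus basal was 0.04 (SE 0.35, adjusted p = 1).

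Whether the response differed between regions was tested as an interaction in 1 model of all 52 libraries, which takes libraries of different regions as independent. In the 6 comparisons (3 pairs of regions at each rate) 0 of 79 members and 0% of 14985 genes passed in edgeR, and DESeq2 and limma-voom called 0 members. From 2 to 19 members and 357 to 3634 genes had an unadjusted p under 0.05. For the low rate, the change in the hypothalamus exceeded that in the hippocampus by 1.55 (SE 0.53, adjusted p = 0.125) for Kcnma1 and 0.66 (SE 0.21, adjusted p = 0.118) for Kcna2. It exceeded that in the nucleus accumbens by 1.64 (SE 0.53, adjusted p = 0.222) and 0.84 (SE 0.21, adjusted p = 0.169). Leaving out hypothalamic basal replicate 4 gave 5 members that passed in the first of these comparisons: Kcna1 (1.24, adjusted p = 0.0418), Kcna2 (0.77, adjusted p = 0.0461), Hcn2 (0.78, adjusted p = 0.0475), Kcnk13 (-1.46, adjusted p = 0.034) and Kcns1 (-1.90, adjusted p = 0.047). Kcnk13 also passed without hippocampal basal replicate 1 (-1.39, adjusted p = 0.0493), together with Kcnk2 (-0.69, adjusted p = 0.0493), and without hippocampal low replicate 4 (-1.42, adjusted p = 0.0458). In the comparison with the accumbens, Kcna2 (0.92, adjusted p = 0.0407) and Kcng3 (4.58, adjusted p = 0.0473) passed without accumbens low replicate 2. Kcng3 had only 373 counts over all libraries and did not pass the count filter when the hypothalamus was fitted alone. These genes were named after their values were seen. A response of these genes particular to the hypothalamus was thus not shown at this threshold.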

How the data were processed

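Total RNA of mouse brain regions was sequenced as stranded libraries. The authors deposited 1 table of raw counts per Ensembl gene for 52 libraries, made with STAR and featureCounts on GRCm38.p4, per the submitters' processing notes; their versions and options, the strand setting and the annotation are not given in the sources used. Gene names came from GENCODE M21, which matched 45229 of 46071 genes; the 842 unmatched ones held 0.0844% of counts and were kept in the fits. Counts were tested with edgeR 4.0.16 (R 4.3.3, limma 3.58.1): filterByExpr, TMM, robust quasi-likelihood test, Benjamini-Hochberg adjustment over all genes tested, threshold 0.05; every adjusted p is from this test unless another tool is named. Each region was fitted alone for insulin, the 17 saline libraries together for regions, and all 52 for interactions. Groups came from the labels, and 0 of 125 pairs of libraries of 1 group agreed within sampling noise. The test was checked on counts simulated for low minus basal in the hypothalamus. It called 68 of 100 changes of 2-fold and 96 of 100 of 4-fold, with 4 false calls. The simulated libraries had no GC lean, batch or tissue difference, so the check does not cover these. Alternatives were DESeq2 (1.42.0), limma-voom, DESeq2 size factors, no filter, batch terms from tag numbers, a GC covariate, 1 fit of all libraries and omission of libraries; omission of libraries by Slc17a7 or Ttr was added after seeing the data. Named genes were those called or, with none called, the 2 with the smallest p per insulin comparison; the 5 highest and 5 lowest called genes of at least 5 CPM per region comparison; the leading called gene of each subfamily; and a set list of members and partners. Others are named as examples chosen after their values were seen. The members and lists were chosen with earlier results of these data known. Promoters are RefSeq's. Counts and medians over the members cover all of them, but some items are not reported here by name or in the figures.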

Additional observations from a re-analysis of the deposited data

Results flagged for a closer look

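Single libraries lay far from the rest of their group for some of the 16 channel genes tested for this. In 141 groups of 5 or 6 libraries, 13 had a highest or lowest value whose gap to its neighbour was too large a part of the group's range by Dixon's test, and chance alone gives such a value in about 1 of 20 groups. Kcnma1 stood at 23.5 CPM in hypothalamic basal replicate 4, against 9.97 to 12.6 CPM in the others of its group. In hypothalamic low replicate 1, Kcnj4 measured 5.28 CPM and the other libraries of the group 1.27 to 2.43 CPM. The Kcnj4 level of hippocampal high replicate 1 was 63.7 CPM, where the group's other libraries held 21.1 to 27.2 CPM. In hypothalamic basal replicate 5, Kcna6 measured 162 CPM and the other libraries of the group 132 to 139 CPM. The Kcna6 level of hippocampal basal replicate 3 was 52.9 CPM, where the group's other libraries held 67.3 to 75.7 CPM. Kcna6 stood at 117 CPM in hippocampal low replicate 5, against 75 to 82.5 CPM in the others of its group. In hypothalamic low replicate 2, Kcng4 measured 25.6 CPM and the other libraries of the group 2.16 to 10.4 CPM. The Kcnu1 level of accumbens basal replicate 3 was 4.16 CPM, where the group's other libraries held 3.05 to 3.38 CPM. Kcnh5 stood at 7.47 CPM in hypothalamic low replicate 2, against 3.24 to 4.07 CPM in the others of its group. In hippocampal high replicate 1, Kcnab3 measured 55.9 CPM and the other libraries of the group 13.9 to 21.6 CPM. The Hcn2 level of accumbens low replicate 4 was 312 CPM, where the group's other libraries held 199 to 241 CPM. Hcn3 stood at 17.1 CPM in hippocampal high replicate 1, against 4.84 to 7.56 CPM in the others of its group. In hippocampal basal replicate 6, Hcn4 measured 4.34 CPM and the other libraries of the group 0.329 to 1.66 CPM. Hippocampal high replicate 1 held 3 of these 13 values, for Kcnj4, Kcnab3 and Hcn3, and is 1 of the 11 GC-leaning libraries. Hypothalamic low replicate 2 held 2, for Kcng4 and Kcnh5. For Kcnma1, the library set apart, hypothalamic basal replicate 4, is the 1 basal library above the lowest low-rate library. The Hcn4 library is the hippocampal one that overlapped with the other regions. The causes were not tested.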

How the results depend on the processing

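The titles number each library singly, so no replicate number pairs libraries, and a batch term for the tag run stood in for a block. Of 26 recomputed counts for low minus basal in the hypothalamus, 16 differed from the reported count by more than 1.5 times; over the 3 hypothalamic insulin comparisons it was 22 of 78. Of 84 region counts 1 did. The hippocampal, accumbens and interaction counts were reported as 0, so their staying at 0 in 81 of 84, 84 of 84 and 350 of 354 fits says little about stability. No direction reversed. For low minus basal in the hypothalamus, 3 members passed as reported. The count was 5 with no filter on low counts, 15 with DESeq2, 9 with limma-voom, 7 in 1 fit of all 52 libraries, 1 with the tag range and 1 with the tag run as a batch term, 0 with the GC lean as a covariate, 0 without the GC-leaning libraries and 1 without the libraries lacking a peptide. Fits without 1 library gave 1 to 23. For high minus basal in the hypothalamus, reported as 0, DESeq2 and limma-voom gave 1 each and fits without 1 library 0 to 12. For the hippocampus, also 0, the fit of all 52 libraries gave 1 at the low rate, and leaving out the libraries with Ttr gave 1 for high minus basal and 1 for high minus low. The accumbens minus hypothalamus count of 37 was 24 without the GC-leaning libraries; fits without 1 library gave 56 to 59, 38 to 46 and 30 to 40 in the 3 region comparisons. The interaction counts of 0 reached 0 to 5 (hypothalamus against hippocampus) and 0 to 2 (hypothalamus against accumbens) at the low rate when 1 library was left out. Apart from fewer libraries in the reduced fits, the cause was not tested. Shares of all genes are not given for these recomputed fits, so their counts are not read as particular to channel genes. Of the 137 region calls, 26 were lost without the GC-leaning libraries, 15 without the accumbens libraries with Slc17a7 and 0 with DESeq2. Depth limits the low members: 17 did not pass the filter in any region, and Kcna3 calls rest on a few CPM.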
